A study of Mus musculus with 8 samples.

Results

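The 128 protein-coding genes described here lie in the first 60 Mb of mouse chromosome 8 (GRCm38) and were expressed at a mean of 10 CPM or more (CPM being a gene's count scaled to the total of its library) over 8 libraries of mouse embryonic stem cells (mESC). They were taken from 346 coding genes of that segment, of which 71 had no count in any library and 214 lay below 10 CPM, and from 43309 genes in the whole count table. *Zfp42*, *Fgfr1*, *Tex15* and *Gins4* were left out by name, as were symbols that start with Rpl, Rps, Nduf, Cox or Atp5. The segment was chosen by its KO/WT ratios in these same libraries. Those ratios, and the test calls made on them below, are therefore given as a description only. The libraries came from J1 (129SV) cells grown without feeders on gelatin in medium with serum. The wild-type (WT) clones carried *Zbtb24* as 2lox/+ and the knockout (KO) clones as 1lox/1lox. Cells were lysed directly in the buffer of the SMARTer Ultra Low RNA Kit v3, which copies polyadenylated RNA into cDNA, and Nextera libraries were made from 1000 cells (10 PCR cycles) or 100 cells (18 PCR cycles). Each of the 4 groups, WT and KO at each input, holds 2 libraries, and the clone behind each library was not given. Cell number and PCR cycles changed together, so their parts in a difference between inputs cannot be told apart.

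ZBTB24 is a zinc finger protein with a BTB domain, and it is known as an activator of *Cdca7*. Mutations of either human gene cause a syndrome of immunodeficiency with unstable centromeres. Genes that lie side by side on a mouse chromosome need not share a function, and the segment holds genes for DNA repair, chromatin, RNA decay, lysosomes, mitochondria and the cytoskeleton. Many of them encode 1 subunit of a complex whose other subunits are encoded on other chromosomes.

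The total count per library was between 9666985 and 16686525. All 8 defining mESC markers were present in each library, at a summed level between 5375 and 6643 CPM. The *Zbtb24* count was higher in the libraries labelled KO (494 to 545) than in those labelled WT (197 to 269). That count covers all exons and does not check a deleted one. It goes against the label as a measure of the targeted gene, so KO and WT below mean the libraries labelled so. *Cdca7* lay at 163 to 172 CPM in the WT libraries and at 46.9 to 63.0 CPM in the KO libraries. The KO libraries of 100 cells stood apart by 6 oligodendrocyte markers, whose summed level was 200.2 and 200.4 CPM there and between 10.3 and 22.4 CPM in the other 6 libraries. The 6 astrocyte markers summed to 202 to 211 CPM in the same 2 libraries and to 76.9 to 151 CPM elsewhere. Most of it came from *Aldoc*, at 146 and 142 CPM there. *Aldoc* was at 126 and 106 CPM in the KO libraries of 1000 cells and at 48.1 to 66.4 CPM in WT. *Slc1a3* was at 22.6 to 29.9 CPM throughout, and *Slc1a2* at 28.7 and 22.3 CPM there against at most 0.310 CPM. *Gfap*, *Aqp4* and *S100b* were highest there too. The 6 fibroblast or feeder markers never summed to more than 2.64 CPM. The 8 neuron markers summed to 396 to 537 CPM in the 8 libraries, most of it from *Stmn2*, which was lowest in the KO libraries of 100 cells. The other 7 were each highest in those 2 libraries, at a sum of 179 and 169 CPM against 23.5 to 38.0 CPM elsewhere, and *Snap25* reached 81.5 CPM there against at most 2.95 CPM. *Slc17a7* was at 15.3 and 14.8 CPM there against 1.40 to 2.79 CPM. The 7 primitive endoderm markers summed to 21.6 to 35.5 CPM. Of the defining oligodendrocyte markers, *Cldn11* was at 0 in the other 6 libraries. The part of these transcripts in the 100 cell ratios was not tested. The 2 WT libraries of 100 cells differed most, with a chi-square per degree of freedom of 15.9 over genes, against 1.90 to 3.06 in the other groups.

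The members held a smaller share of all counts in every KO library than in every WT library. With 1000 cells, they took 1.38% and 1.37% of the counts in the WT libraries and 0.906% and 0.894% in the KO libraries. With 100 cells, the shares were 1.37% and 1.33% in WT and 0.872% and 0.866% in KO. The genotypes thus did not overlap, and replicates differed by far less than genotypes (group SD of 0.0038 to 0.0278 percentage points, n = 2). This describes a segment chosen by the same ratios. Genes on the rest of chromosome 8 did not overlap within an input either. With 1000 cells they took 4.05% and 3.99% in WT against 3.76% and 3.69% in KO. With 100 cells they took 4.18% and 4.18% in WT against 4.01% and 4.05% in KO. In bulk RNA of this kind, fewer cells that express a gene and less RNA per cell cannot be told apart.

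The median member had a KO/WT log2 ratio of -0.50 at 1000 cells, which is a ratio of 0.706, and of -0.62 at 100 cells, a ratio of 0.652. The middle of the distribution was narrow. Its quartiles stood at -0.80 and -0.33 with 1000 cells, and at -0.86 and -0.39 with 100 cells, and single members ranged from -1.43 to 0.59 and from -1.88 to 0.31. The SD over members, 0.36 and 0.39, was no larger than the 0.47 and 0.55 of 7644 coding genes at the same level on other chromosomes, whose medians were 0.03 and -0.03. The 325 coding genes on the rest of chromosome 8 had medians of -0.09 and -0.09. Of the 18 chromosomes other than 1 and 8, medians lay between -0.07 and 0.10 at 1000 cells and between -0.14 and 0.02 at 100 cells. Chromosome 1 stood on the other side, at 0.56 and 0.47 (469 genes, which are also among the 7644). Each of the 4 pairings of a KO with a WT library gave a member median between -0.52 and -0.49 at 1000 cells and between -0.58 and -0.55 at 100 cells, on log2 values with 0.5 CPM added.

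**Figure D1:**
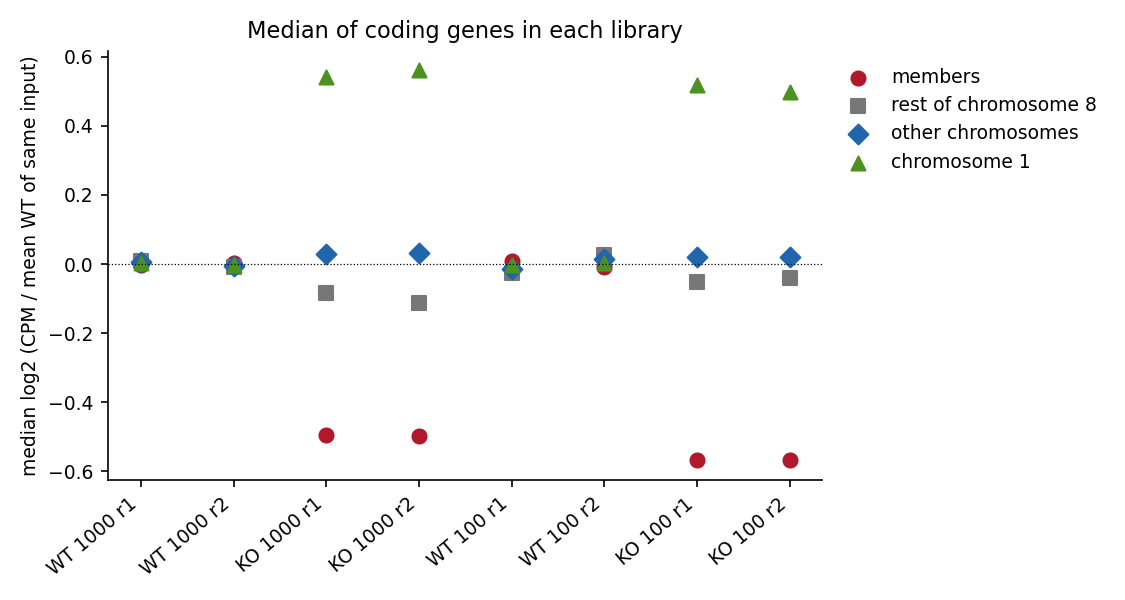
Median log2 of CPM in each library relative to the mean of the WT libraries of the same input, for the members (n = 128), the rest of chromosome 8 (325), other chromosomes (7644) and chromosome 1 (469). The 4 KO libraries lie at -0.50, -0.50, -0.57 and -0.57 for the members and between 0.50 and 0.56 for chromosome 1. The 469 genes of chromosome 1 are also among the 7644.

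At an adjusted p of 0.05 in the quasi-likelihood test of edgeR, 110 members were lower and 2 higher in KO at 1000 cells, and 95 were lower and none higher at 100 cells (0 higher also at an unadjusted p of 0.05 and by DESeq2). In those comparisons, 20.6% and 16.6% of all 16816 fitted genes were lower and 20.9% and 17.6% higher. Of the coding genes at 10 CPM or more on other chromosomes, 25.9% and 19.9% were lower and 31.3% and 17.8% higher. Chromosome 1 is among these, with 377 and 274 of its 469 genes higher. Since the ratios chose the segment, nothing is read from the members' counts. At both inputs 87 of 128 members were lower, as were 9.24% of all fitted genes and 11.8% of the coding genes on other chromosomes, and 10 members were called lower at neither. The 4 KO libraries all lay below the 4 WT libraries for 92 members (71.9%), for 77 of 325 genes (23.7%) on the rest of the chromosome, and for 13.9% of fitted genes and 15.7% of the coding genes on other chromosomes. No member had all 4 KO libraries above all 4 WT libraries. That held for 40 of 325 genes on the rest of the chromosome, 1403 of 7644 coding genes on other chromosomes and 2373 of 16816 fitted genes. Leaving out KO replicate 1 or 2 of the 100 cell group left 44 and 43 members called at that input, with the median between -0.63 and -0.60 over the 4 libraries left out in turn.

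The ratios had lower medians in the first 30 Mb than in the next 30 Mb at both inputs. From 0 to 30 Mb, 78 members had medians of -0.61 at 1000 cells and -0.69 at 100 cells, and from 30 to 60 Mb, 50 members had medians of -0.41 and -0.51. In steps of 10 Mb, the medians at 1000 cells were -0.67, -0.73, -0.53, -0.42, -0.36 and -0.32, and those at 100 cells were -0.64, -0.69, -0.71, -0.52, -0.48 and -0.57. The lowest step was the second at 1000 cells and the third at 100 cells, and the last step held 8 members. The Spearman correlation between start position and ratio was 0.30 at 1000 cells and 0.13 at 100 cells over 128 members, which share their libraries, and GC content fell along the segment too, from a median of 50.5% in the first step to 40.8% in the last. The end at 60 Mb was no sharp edge. The 23 genes from 60 to 70 Mb had medians of -0.10 and -0.39, and the 66 genes from 70 to 80 Mb had medians of -0.29 and -0.12.

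The last members inside the segment were *Sap30* (log2 ratio -0.45 at 1000 cells and -0.39 at 100 cells), *Hmgb2* (-0.58 and -0.58) and *Galnt7* (-0.01 and -0.65). The first genes outside it were *Hpf1* (0.00 and -0.30), *Clcn3* (-0.42 and -0.75) and *Nek1* (-0.83 and -0.55). At the expression bound, *Lonrf1* (10.8 CPM), *Brf2* (12.3 CPM) and *Dcun1d2* (12.8 CPM) were the lowest members, and *Zdhhc2* (9.99 CPM; -0.48 and 0.30), *Micu3* (9.25 CPM; -0.19 and 0.12) and *Stox2* (9.05 CPM; -1.04 and -0.60) lay just below it. Of the 214 coding genes under 10 CPM, 81 were fitted, and their medians were -0.49 and -0.09 with an SD of 0.83 and 2.07. The 4 genes left out by name were below 0 at both inputs, *Tex15* at -1.75 and -1.43, *Fgfr1* at -0.95 and -1.13, *Gins4* at -0.85 and -0.69 and *Zfp42* at -0.26 and -0.36.

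**Figure D2:**
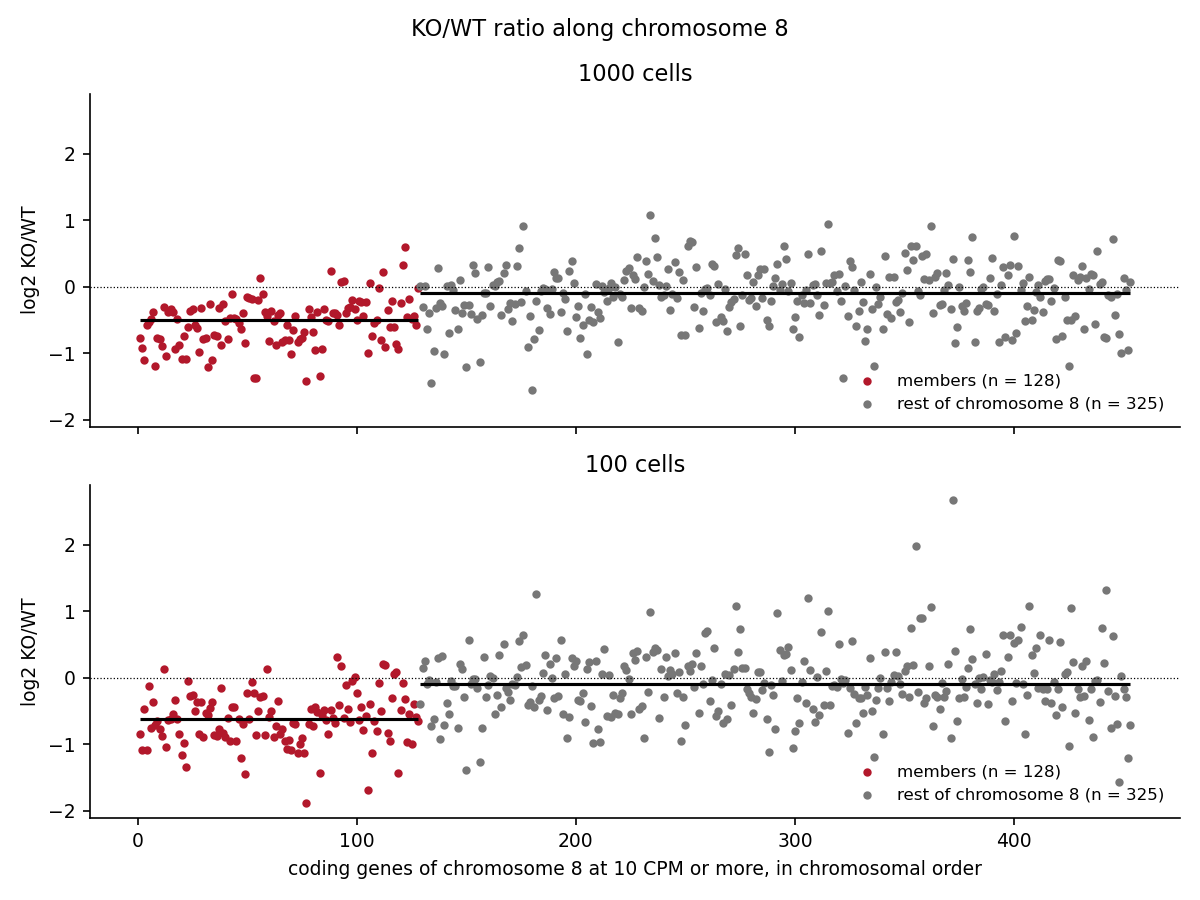
KO/WT log2 ratio (vertical axis) of each coding gene of chromosome 8 at 10 CPM or more, at 1000 cells (top) and 100 cells (bottom). On the horizontal axis the members stand in chromosomal order. The other genes follow them but are not sorted by position, so the axis label holds for the members only. Red points are the 128 members, grey points the other 325 genes, and black lines the medians, which are -0.50 and -0.62 for the members and -0.09 for the rest at both inputs.

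Per kilobase of transcript, the most abundant members were *Eif4ebp1* (405 CPM per kb), *Slc25a4* (371), *Hmgb2* (283), *Gtf2e2* (174), *Lamp1* (162), *Ash2l* (160), *Fnta* (152), *Frg1* (110), *Sap30* (100.3) and *Mak16* (93.6). All were lower in KO at both inputs.

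*Eif4ebp1* (chr8:27260329-27276674, plus strand) encodes a repressor of cap-dependent translation that mTOR phosphorylates. Its level with 1000 cells was 897 and 859 CPM in WT against 705 and 692 CPM in KO, and with 100 cells 1023 and 992 CPM in WT against 629 and 650.0 CPM in KO. The genotypes did not overlap at either input, and the log2 ratio was -0.33 ± 0.05 (SE) and -0.70 ± 0.11. *Slc25a4* (chr8:46206797-46211284, minus strand), the ADP/ATP carrier of the inner mitochondrial membrane, had, with 1000 cells, 824 and 795 CPM in WT against 559 and 587 CPM in KO. With 100 cells it had 848 and 986 CPM in WT against 545 and 546 CPM in KO. KO lay below WT in all libraries, with log2 ratios of -0.50 ± 0.06 and -0.79 ± 0.11.

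*Hmgb2*, an HMG-box protein of chromatin, had the same log2 ratio at both inputs, -0.58 ± 0.06 and -0.58 ± 0.16. The WT libraries of 100 cells disagreed over it, at 701 and 1046 CPM, while the 4 KO libraries lay between 571 and 622 CPM. *Ash2l*, a core subunit of the COMPASS histone methyltransferases, stood with 1000 cells at 772 and 764 CPM in WT against 434 and 433 CPM in KO. With 100 cells it stood at 685 and 748 CPM in WT against 447 and 417 CPM in KO, and the log2 ratios were -0.83 ± 0.06 and -0.77 ± 0.11. *Lamp1*, a glycoprotein of the lysosomal membrane, was at 445 to 484 CPM in the WT libraries and at 225 to 269.9 CPM in the KO libraries, and its log2 ratios were -0.98 ± 0.06 and -0.84 ± 0.11. *Lamp1* shares exon sequence with *Grtp1*, so some of its fragments may have been discarded.

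Only 4 members lay 0.5 or more below the median of the segment at both inputs. *Adrb3*, a beta-adrenergic receptor best known from adipose tissue, was the lowest of all. Its WT libraries were at 22.5 and 24.0 CPM with 1000 cells and 25.6 and 21.9 CPM with 100 cells, and its KO libraries were at 8.16 and 9.07 CPM and at 6.79 and 6.50 CPM. The groups were far apart, with log2 ratios of -1.43 ± 0.13 and -1.88 ± 0.18. Exons of *Adrb3* overlap those of another gene, so some of its fragments may have been discarded.

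*Ubxn8*, an endoplasmic reticulum protein of the degradation of misfolded proteins, was at 26.1 and 23.9 CPM in WT against 7.15 and 12.5 CPM in KO with 1000 cells. With 100 cells it was at 22.9 and 22.0 CPM in WT against 9.25 and 7.93 CPM in KO. The KO libraries of 1000 cells differed between themselves but stayed below WT, and the log2 ratios were -1.34 ± 0.16 and -1.43 ± 0.17.

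*Cars2* and *Ankrd10* are neighbours near 11.5 Mb with *Ing1* between them. *Cars2*, the mitochondrial cysteinyl-tRNA synthetase, was at 38.2 and 36.7 CPM in WT against 19.0 and 16.3 CPM in KO with 1000 cells, and at 35.9 and 36.4 CPM and 16.3 and 17.1 CPM with 100 cells. Its log2 ratios were -1.09 ± 0.11 and -1.16 ± 0.13. It shares exon sequence with *Naxd*, a member that repairs hydrated NADH and NADPH, whose ratios were -0.87 and -0.85. *Ing1*, a subunit of SIN3 deacetylase complexes that reads methylated histone tails, was at -0.74 and -0.98.

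*Ankrd10*, a gene named for its ankyrin repeats, was at 162 and 166 CPM in WT against 76.2 and 77.2 CPM in KO with 1000 cells. With 100 cells it was at 174 and 128 CPM in WT against 63.4 and 59.3 CPM in KO. KO lay below WT throughout, by -1.09 ± 0.07 and -1.34 ± 0.15. Its annotated exons include the miRNA gene *Mir7238*. The letters CAGGACCT, the core of the motif ascribed to ZBTB24, and their reverse complement AGGTCCTG were searched on both strands of RefSeq promoter windows of 300 bases (250 before to 50 after a transcript start, GRCm38.p6). Of the members, 58 had a window, and *Ankrd10* alone held the motif. Among all windows 653 of 32851 (1.99%) held it, as did 621 of 27025 genes (2.3%). The match lay upstream of a shorter, non-coding *Ankrd10* transcript that starts at 11635036, in the first intron of the coding transcripts whose first exon ends at 11635411. The remaining coding transcript starts downstream of the match, at 11633950. The window of the other *Ankrd10* start did not hold it. The 250 bases before the start of the shorter transcript, at chr8:11635037-11635286 on the minus strand, are shown with the motif (11635158 to 11635165) in capitals, because they hold the only match among the members.
Ankrd10: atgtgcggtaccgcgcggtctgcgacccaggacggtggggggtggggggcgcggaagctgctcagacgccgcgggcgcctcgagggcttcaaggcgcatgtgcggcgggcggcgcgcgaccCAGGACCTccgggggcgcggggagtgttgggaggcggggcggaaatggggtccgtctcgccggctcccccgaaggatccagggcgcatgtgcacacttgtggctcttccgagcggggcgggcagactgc
A match to 8 letters describes the sequence and is not a binding site. The median number of CpG in a promoter window was 22.5 for members and 23 for coding genes on other chromosomes.

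At both inputs, 3 members lay 0.5 or more above the median, and none of them was called at both. *Primpol* encodes a primase and polymerase that restarts stalled replication forks. It was at 21.3 and 26.2 CPM in WT against 25.5 and 29.4 CPM in KO with 1000 cells, and at 18.8 and 16.0 CPM and 18.6 and 22.6 CPM with 100 cells. The genotypes overlapped at both inputs, and the log2 ratios were 0.22 ± 0.12 and 0.20 ± 0.17. Its exons overlap those of *Cenpu*, a centromere protein gene with ratios of -0.80 and -0.50.

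*Lonrf1*, named for its LON domain and RING finger, was at 10.5 and 12.5 CPM in WT against 12.4 and 11.6 CPM in KO with 1000 cells. With 100 cells it was at 9.49 and 8.60 CPM in WT against 11.0 and 9.98 CPM in KO, and the log2 ratios were 0.07 ± 0.15 and 0.18 ± 0.19. It is the least abundant member. *Aga*, a lysosomal enzyme that cleaves asparagine-linked sugars, was at 27.3 and 29.3 CPM in WT against 35.7 and 34.8 CPM in KO with 1000 cells. The 100 cell libraries overlapped, at 22.6 and 32.7 CPM in WT against 26.8 and 27.7 CPM in KO, and the log2 ratios were 0.32 ± 0.10 and -0.07 ± 0.17. *Neil3*, a DNA glycosylase, was the other member called higher at 1000 cells, and it lies next to *Aga* near 53.6 Mb. None of the 3 genes above the median had a mean of 30 CPM or more, and of the 4 below it only *Ankrd10* did.

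Between these ends, 88 of 128 members lay within 0.5 of the median at both inputs. *Abhd13*, *Rbpms*, *Cfap97*, *Vps36* and *Thap1* were the closest to it. *Rbpms*, an RNA-binding protein, may stand for them: it was at 188 and 175 CPM in WT against 131 and 127 CPM in KO with 1000 cells, and at 216 and 196 CPM in WT against 139 and 135 CPM in KO with 100 cells. No member lay 0.5 above the median at one input and 0.5 below it at the other. Over the 128 members, the Spearman correlation between the ratios at the 2 inputs was 0.47, a description of genes that share their libraries.

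**Figure D3:**
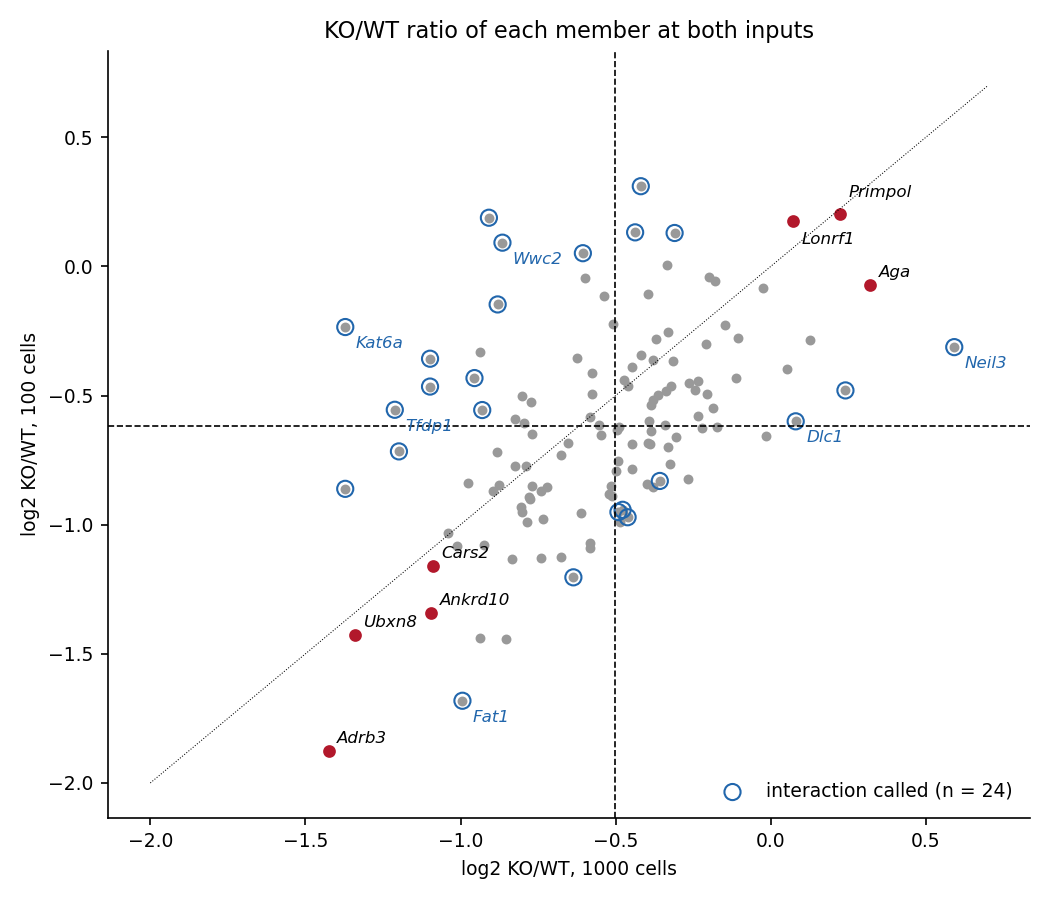
KO/WT log2 ratio of each of 128 members at 1000 cells (horizontal axis) and 100 cells (vertical axis). Dashed lines are the medians (-0.50 and -0.62), the dotted line marks equal ratios, filled red points are the 3 genes above and 4 below the median by 0.5 or more at both inputs, and blue rings mark the 24 genes whose ratio differed between inputs.

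Of the members, 91 were placed in 9 functional lists and 37 in none. Every list had a median below 0 at both inputs, between -0.89 and -0.24 at 1000 cells and between -0.82 and -0.40 at 100 cells. The counts called lower are a description beside the shares given above, and the lists were not tested against each other.

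Of 17 members that act in DNA repair, replication or cell division, 14 and 11 were called lower with 1000 and with 100 cells, with medians of -0.54 and -0.45. *Tfdp1*, the DP partner of E2F transcription factors, had ratios of -1.21 ± 0.07 and -0.56 ± 0.10. *Cdc16*, a subunit of the anaphase-promoting complex, had smaller ones, -0.26 ± 0.07 and -0.45 ± 0.10. *Ckap2*, a protein of the mitotic spindle, was at -0.49 ± 0.07 and -0.95 ± 0.10. Among repair enzymes, *Wrn*, a RecQ helicase, was at -0.95 ± 0.11 and -0.43 ± 0.14, and *Lig4*, the ligase of end joining, at -0.94 ± 0.15 and -0.33 ± 0.16. *Polb*, the polymerase of base excision repair, was at -0.17 ± 0.09 and -0.62 ± 0.13. Within this list, then, *Neil3* and *Primpol* lay above 0 at 1000 cells and *Primpol* and *Cdkn2aip* at 100 cells.

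Of 10 chromatin and transcription genes, 9 and 8 were called lower, and all 10 lay below 0 at both inputs (medians -0.66 and -0.54). *Gtf2e2*, a subunit of the general factor TFIIE, was at -0.34 ± 0.06 and -0.48 ± 0.16, and *Sap30*, a subunit of SIN3 complexes, at -0.45 ± 0.07 and -0.39 ± 0.10. *Kat6a*, the MOZ histone acetyltransferase, had the widest gap between inputs, -1.37 ± 0.10 and -0.23 ± 0.14. *Ing2* was the member of this list that was called at neither input, at -0.21 ± 0.11 and -0.30 ± 0.16.

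The RNA processing and translation genes were called lower in 13 of 13 cases with 1000 cells and in 11 with 100 cells (medians -0.40 and -0.54). *Lsm1*, which with its partners binds the ends of deadenylated mRNA, was at -0.40 ± 0.07 and -0.84 ± 0.11. *Cnot7*, a deadenylase of the CCR4-NOT complex, was at -0.32 ± 0.06 and -0.46 ± 0.11. *Mak16*, a factor of large ribosomal subunit assembly, was at -0.68 ± 0.06 and -0.73 ± 0.11. *Elavl1*, the RNA-binding protein HuR, was the list's exception at 100 cells, with -0.31 ± 0.06 and then 0.13 ± 0.10.

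The 20 genes of lysosome, endoplasmic reticulum and membrane traffic had the largest gap between inputs of the 9 lists, with medians of -0.47 and -0.77, and 18 were called lower at each. *Asah1*, the lysosomal acid ceramidase, was at -0.22 ± 0.06 and -0.63 ± 0.11. *Mcoln1*, a cation channel of lysosomes, was at -0.92 ± 0.12 and -1.08 ± 0.15. *Vps36* and *Vps37a*, of the ESCRT machinery that sorts membrane proteins, were at -0.55 ± 0.07 and -0.31 ± 0.08 with 1000 cells, and at -0.61 ± 0.11 and -0.66 ± 0.13 with 100 cells.

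With 1000 cells all 6 mitochondrial members were called lower, and with 100 cells 5, with medians of -0.57 and -0.82. *Timm44*, a subunit of the protein import motor, was at -0.90 ± 0.07 and -0.87 ± 0.10, while *Vdac3*, a pore of the outer membrane, was at -0.15 ± 0.06 and -0.23 ± 0.13. Of 6 metabolic enzymes and transporters, *Gsr*, which reduces glutathione, was at -0.93 ± 0.07 and -0.56 ± 0.10. *Dctd*, which deaminates dCMP, reached -0.94 ± 0.07 and -1.44 ± 0.17, and *Acsl1*, which activates fatty acids, stood at -0.03 ± 0.11 and -0.08 ± 0.14.

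The 10 genes of the centrosome, cytoskeleton and small GTPase signalling had medians of -0.51 and -0.57, with 8 and 5 called lower. *Pcm1*, of centriolar satellites, was at -0.51 ± 0.06 and -0.22 ± 0.11, and *Dlc1*, a GTPase-activating protein, at 0.08 ± 0.08 and -0.60 ± 0.12. Signalling genes had the smallest median at 100 cells, -0.40, after -0.39 at 1000 cells, and 4 and 3 of 6 were called lower. In that list *Sfrp1*, a secreted inhibitor of Wnt, was at 0.13 ± 0.09 and -0.28 ± 0.11, and *Ikbkb*, a kinase of the NF-kappaB pathway, at -0.18 ± 0.11 and -0.06 ± 0.14. Among 3 adhesion genes, *Fat1*, an atypical cadherin, was called lower at both inputs (-0.99 ± 0.09 and -1.68 ± 0.18), and *Adam9* and *Tenm3* at neither.

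**Figure D4:**
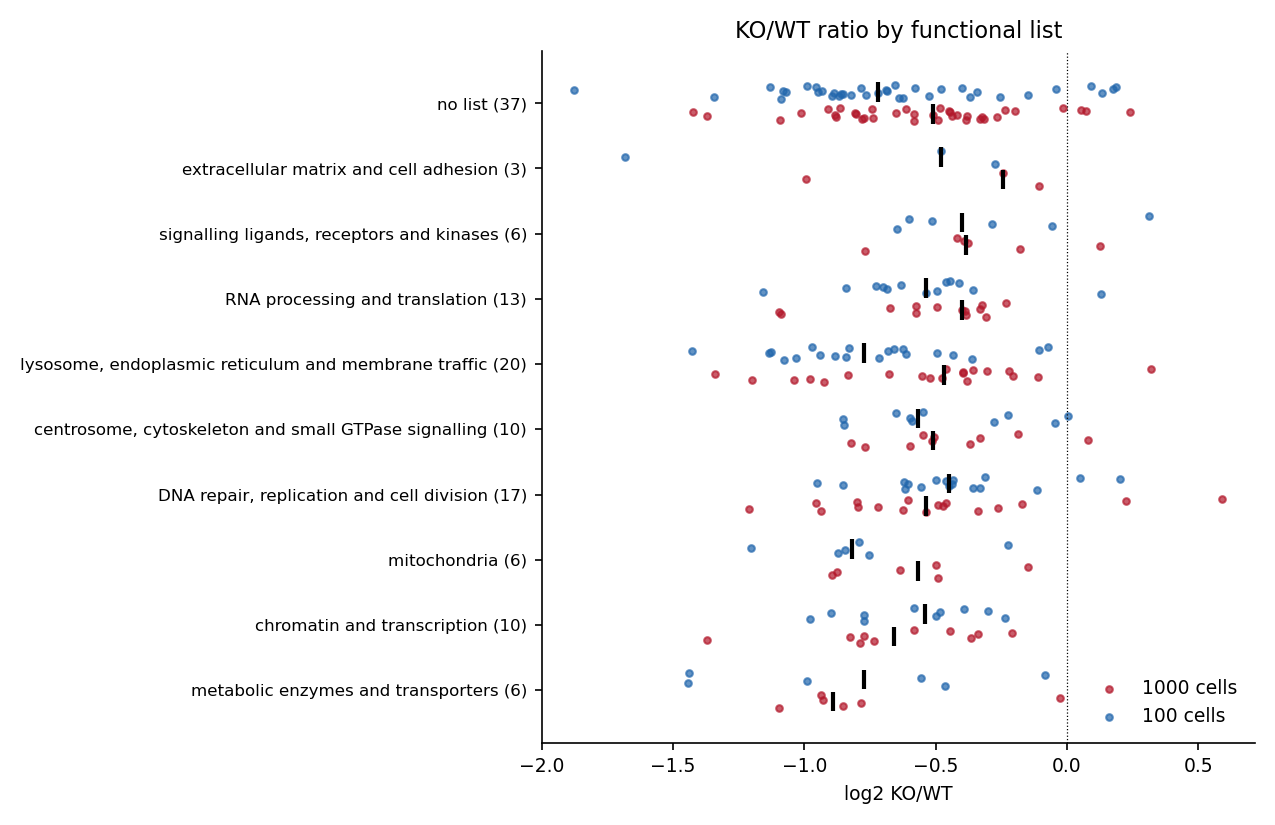
KO/WT log2 ratio (horizontal axis) of the members of 9 functional lists and of 37 members in no list, with the number of members in parentheses. Red points are 1000 cells, blue points 100 cells and black bars the list medians, all of which lie below 0.

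For 20 complexes or protein families with a gene among the members, 78 partner genes lay on other chromosomes and were expressed at 10 CPM or more. Partners were other subunits or members of the same family, such as *Cul4b* beside *Cul4a*, *Vdac1* and *Vdac2* beside *Vdac3*, and *Ppp2ca* beside *Ppp2cb*. Those partners did not enter the choice of the segment. With 1000 cells their median log2 ratio was 0.12, and with 100 cells -0.01. Of the 78, 11 were lower and 33 higher at 1000 cells (14.1% and 42.3%), and 8 were lower and 16 higher at 100 cells (10.3% and 20.5%). On other chromosomes, chromosome 1 included, these shares were 25.9% and 31.3% with 1000 cells, and 19.9% and 17.8% with 100 cells. Without KO replicate 1 or 2 of the 100 cell group, 6 partners were called at that input, and without WT replicate 1 or 2 of that group, 48 and 46 were.

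In each of the 20 complexes or families the member had a lower ratio than the median of its partners at both inputs. The choice of the members largely fixes that direction. In the TRAPP complex of vesicle tethering, *Trappc5* and *Trappc11* had a median of -0.78 and -0.77, and their 9 partners one of 0.32 and 0.11. Among these partners, *Trappc9* was higher at both inputs (log2 ratio 0.72 ± 0.16 with an edgeR adjusted p of 0.00056, and 1.12 ± 0.18 with an adjusted p of 0.0017). In the Cullin 4 ubiquitin ligase, *Cul4a* was at -0.62 and -0.36, and *Ddb1*, its adaptor, was higher at both inputs (0.47 ± 0.06, adjusted p 2.2e-07, and 0.36 ± 0.10, adjusted p 0.025). *Cnot9*, a partner of *Cnot7* that is encoded on chromosome 1, was higher too (0.74 ± 0.07, adjusted p 2.2e-10, and 0.45 ± 0.11, adjusted p 0.014). Around *Ash2l*, the COMPASS subunit *Rbbp5*, also on chromosome 1, was higher at both inputs (0.46 ± 0.08, adjusted p 1.6e-05, and 0.39 ± 0.11, adjusted p 0.025). The coding genes of chromosome 1 themselves had medians of 0.56 and 0.47. At 100 cells, the edgeR calls of *Ddb1*, *Cnot9* and *Rbbp5* were lost without KO replicate 1 or 2 of that input, where their ratios were 0.36 and 0.36, 0.42 and 0.47, and 0.39 and 0.40.

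Some partners were lower in KO too, whether or not they lay below their member. In the SIN3 complexes, *Brms1* was lower at both inputs (-1.31 ± 0.11, adjusted p 3.5e-11, and -0.47 ± 0.14, adjusted p 0.029), below *Sap30*, *Ing1* and *Ing2* at 1000 cells. Its call at 100 cells was lost without KO replicate 1 or 2 of that input, at -0.41 and -0.53. In ESCRT-II, *Snf8* was lower at 1000 cells (-0.48 ± 0.08, adjusted p 1.6e-05) and stood at -0.16 ± 0.13 at 100 cells (adjusted p 0.38, and called at -0.31 without WT replicate 1 of that input), beside *Vps36* at -0.55 and -0.61. For *Kat6a*, the partners *Brpf1* and *Meaf6* were lower at 1000 cells (-0.36 ± 0.10, adjusted p 0.0057, and -0.34 ± 0.10, adjusted p 0.0048), calls that were lost without KO replicate 2 (*Brpf1*, -0.26) or KO replicate 1 (*Meaf6*, -0.28) of that input. Among the E2F factors that pair with *Tfdp1*, *E2f3* was at -0.21 ± 0.14 at 1000 cells (adjusted p 0.23) and lower at 100 cells (-1.41 ± 0.22, adjusted p 0.0016), and *E2f5* was higher at 1000 cells (0.58 ± 0.09, adjusted p 1.2e-05).

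The interaction of genotype and input, fitted over all 8 libraries, was past the threshold for 24 members. Their KO/WT ratio was higher at 100 cells for 15 (11.7% of members) and lower for 9 (7.03%), against 9.28% and 7.05% of all fitted genes and 10.5% and 9.93% of coding genes on other chromosomes. The members were thus close to the background. Their number rested on single libraries: it was 4 and 5 without KO replicate 1 or 2 of 100 cells, 11 and 5 without KO replicate 1 or 2 of 1000 cells, 51 and 52 without WT replicate 1 or 2 of 100 cells, and 6 without either WT replicate of 1000 cells. *Kat6a*, *Wwc2* and *Tfdp1* were among those that kept their call under all 13 alternatives run, and *Dlc1* under 12.

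*Kat6a* was at 52.3 and 55.5 CPM in WT against 20.7 and 20.8 CPM in KO with 1000 cells, and at 27.6 and 33.4 CPM in WT against 25.5 and 28.0 CPM in KO with 100 cells. Its WT level fell from 1000 to 100 cells while its KO level rose, and the genotypes overlapped at 100 cells. The interaction was 1.18 ± 0.17 (log2, SE, edgeR adjusted p 0.00106).

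*Wwc2*, of the WWC proteins that act on the Hippo pathway, was at 25.7 and 26.3 CPM in WT against 14.1 and 14.5 CPM in KO with 1000 cells, and at 23.5 and 27.6 CPM and 28.7 and 27.6 CPM with 100 cells. Its 1000 cell KO libraries stood alone below the other 6, and the interaction was 1.00 ± 0.18 (adjusted p 0.00299). *Tfdp1* was at 257 and 243 CPM in WT against 109 and 107 CPM in KO with 1000 cells, and at 209.9 and 231 CPM and 155 and 155 CPM with 100 cells. The genotypes stayed apart at both inputs, with less distance at 100 cells (interaction 0.70 ± 0.12, adjusted p 0.00286).

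In the other direction, *Dlc1* was at 55.8 and 57.8 CPM in WT against 60.3 and 59.7 CPM in KO with 1000 cells, and at 57.8 and 55.0 CPM in WT against 37.8 and 38.8 CPM in KO with 100 cells. Only its KO libraries of 100 cells lay apart (interaction -0.64 ± 0.14, adjusted p 0.00746, and 0.0542 in edgeR without KO replicate 1 of 100 cells). *Neil3* was at 12.1 and 11.0 CPM in WT against 16.9 and 18.1 CPM in KO with 1000 cells, and at 11.5 and 14.6 CPM in WT against 11.6 and 10.1 CPM in KO with 100 cells. It was above WT at 1000 cells and overlapped it at 100 cells (interaction -0.86 ± 0.23, adjusted p 0.0196). Its call was lost without KO replicate 1 or 2 of 100 cells, KO replicate 2 of 1000 cells or either WT replicate of 1000 cells, with the interaction between -0.96 and -0.77.

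**Figure D5:**
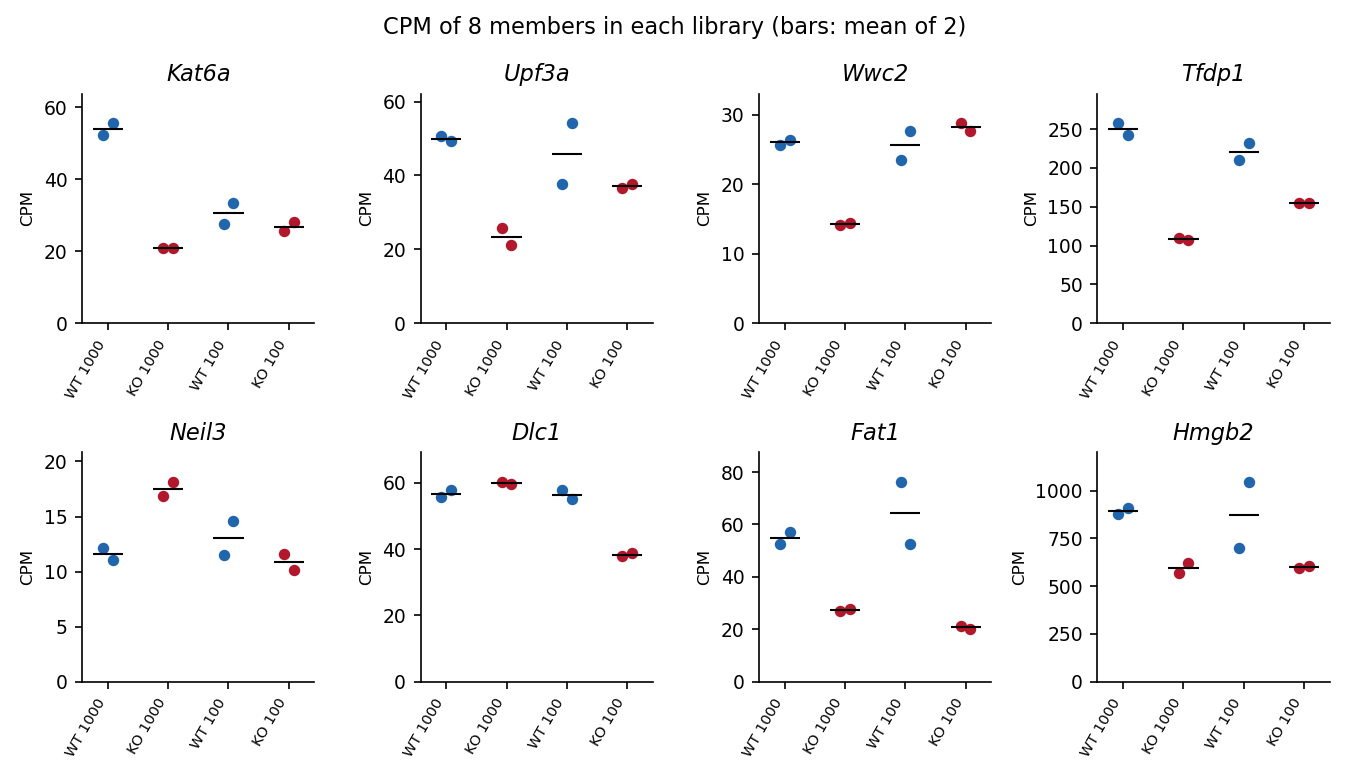
CPM of 8 members in each library (points) with the mean of the 2 libraries of a group (black bars), each vertical axis starting at 0. *Kat6a*, *Upf3a*, *Wwc2* and *Tfdp1* have their largest genotype difference at 1000 cells, *Dlc1* and *Fat1* at 100 cells, and *Hmgb2* has a log2 ratio of -0.58 at both inputs.

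Within WT, 2 members were lower with 100 than with 1000 cells, *Kat6a* (log2 ratio -0.83 ± 0.15, edgeR adjusted p 0.0193) and *Pcm1* (-0.68 ± 0.12, adjusted p 0.0188), and none was higher (5 at an unadjusted p of 0.05, 1 by DESeq2). Of all fitted genes, 0.678% were lower and 0.149% higher. Without either WT replicate of 1000 cells no member was called, and without WT replicate 1 or 2 of 100 cells 30 and 28 were. Within KO, 28 members (21.9%) were higher and 42 (32.8%) lower with 100 cells, against 27.3% and 24.8% of all fitted genes and 28.7% and 33.3% of coding genes on other chromosomes. *Pnpla6*, a phospholipase of the endoplasmic reticulum, rose most (1.21 ± 0.09, adjusted p 9.32e-13), before *Wwc2* (0.98 ± 0.11, adjusted p 1.99e-09) and *Xab2*, a splicing factor that also acts in repair (0.94 ± 0.08, adjusted p 7.16e-12). The largest falls were those of *Neil3* (-0.69 ± 0.13, adjusted p 2.85e-05), *Spcs3*, a subunit of signal peptidase (-0.66 ± 0.06, adjusted p 5.06e-11), and *Dlc1* (-0.64 ± 0.08, adjusted p 1.64e-08). Whether the effect of input differed between genotypes is the interaction given above.

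The members had a median GC content of 47.5%, against 52.4% on the rest of chromosome 8 and 48.4% on other chromosomes. Over the members, the Spearman correlation between GC content and KO/WT ratio was -0.28 at 1000 cells and -0.18 at 100 cells, and over the coding genes of other chromosomes it was -0.27 and -0.00386. The ratio of 100 to 1000 cells within KO went with GC content over members (Spearman correlation 0.34) and over other chromosomes (0.47). The part of GC content in the ratios was not tested. Exons of 53 members overlapped those of another gene, on the opposite strand for 47 of them, and the counts ignored strand. The other 75 members included 66 called at 1000 cells and 58 at 100 cells.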

How the data were processed

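The deposited table holds raw fragment counts per gene for 8 libraries. To make it, the authors removed ribosomal reads with Bowtie2 2.1.0, mapped the rest to mm10 with TopHat 2.0.10 and counted fragments over GENCODE M4 with htseq-count (HTSeq 0.6.1) in union mode without strand, which discards fragments of several genes or positions. Genes with overlapping exons can therefore lose counts. Removal of PCR duplicates is not given in the sources used here. Positions, exons and GC content came from GENCODE M21 on GRCm38, the same assembly (42425 of 43309 identifiers matched).

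The 16816 genes that reached 10 counts in 1 library or more were fitted with edgeR 4.0.16 in R 4.3.3 (TMM scaling, quasi-likelihood F test, Benjamini-Hochberg adjustment over all fitted genes, threshold 0.05, two-sided). The fit was also run on simulated counts with 1 fixed spread, for KO against WT at 1000 cells and for input within KO. That simulation did not cover the interaction or any comparison with the WT libraries of 100 cells. KO against WT was fitted within each input, 100 against 1000 cells within each genotype, and the interaction over all 8 libraries, so an interaction can differ slightly from the difference of 2 ratios. CPM of members is TMM-scaled, and that of the 10 CPM minimum and of markers uses the total count. With 2 libraries per group, p-values measure only the spread between these libraries, and an exact permutation test of 2 against 2 could not reach the threshold. Alternatives were DESeq2 1.42.0, its size factors, library size alone, no filter beyond 1 count, a joint fit of the 8 libraries, a block for replicate numbers, each replicate left out, and other bounds of the segment.

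The members, the functional lists and the lists of complexes were chosen with earlier results of these data known. Genes were named if they lay 0.5 or more from the median at both inputs, were the 5 closest to it or the 10 most abundant per kilobase, passed the interaction test or led the input tests, or belonged to the functional lists and complexes. Of the lists and complexes, the examples were chosen after their values were seen. Same-numbered libraries deviated together at a correlation of 0.054, 0.07, -0.053 and -0.008 in the 4 comparisons, so the numbers were treated as names only. The values of 1 member are not reported here.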

Additional observations from a re-analysis of the deposited data

Results flagged for a closer look

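The KO/WT ratio differed between inputs for 24 members, of which 23 are named here, by the interaction test of edgeR, at an adjusted p under the threshold. Differences are the log2 ratio at 100 cells minus that at 1000 cells. It was higher at 100 cells for *Kat6a* (1.18), *Wwc2* (1.00), *Tnks* (0.78), *Upf3a* (0.78), *Tdrp* (0.78), *Cdkn2aip* (0.71), *Tfdp1* (0.70), *Pnpla6* (0.68), *Plekha2* (0.61), *Wrn* (0.56), *Gpat4* (0.56), *Trappc5* (0.53), *Elavl1* (0.48) and *Gsr* (0.42). It was lower at 100 cells for *Neil3* (-0.86), *Gm10131* (-0.67), *Fat1* (-0.64), *Dlc1* (-0.64), *Slc25a15* (-0.52), *Spcs3* (-0.46), *Trappc11* (-0.43), *Agpat5* (-0.42) and *Ckap2* (-0.42). Of the 24, *Kat6a* (adjusted p between 4.58e-08 and 0.0149 over 13 alternatives), *Wwc2* (4.16e-06 to 0.0252) and *Tfdp1* (1.04e-07 to 0.029) were among those that kept the call under each alternative run. *Trappc11* and *Fat1* kept it under 3 of 13, with adjusted p of up to 0.177 and 0.17. The part of the oligodendrocyte and astrocyte transcripts of the 100 cell KO libraries in these differences was not tested.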

How the results depend on the processing

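No member changed sign among the KO/WT ratios called, under any alternative. The members' median log2 ratio at 1000 cells (-0.50) was -0.59 with library size alone, which moves the median of all fitted genes by -0.09 at that input, -0.49 at a mean of 30 CPM or more, and -0.52 with the segment ended at 50 Mb. At 100 cells (-0.62) it was -0.60 without the filter and -0.57 in 1 fit of all 8 libraries. Relative to other chromosomes it was -0.53 and -0.59 under all 3 scalings. Members called numbered 74 of 80 at 1000 cells at 30 CPM or more, and 66 and 58 of 75 without overlapping exons. The 3 genes above the median became 0 at 30 CPM or more, and the 4 below it became 2, of which *Ankrd10* is 1 of the 4 and *Fat1* was not among them. Without overlapping exons, 1 lay below it. Within WT, 2 members called became 4 with DESeq2, 8 without the filter and 4 with the replicate block. With the replicate block, 114 and 99 members and 47 and 27 partners were called for KO against WT, 69 for input within KO and 25 for the interaction, and the medians were -0.50 and -0.62. With each replicate left out in turn, the median ranged from -0.51 to -0.50 at 1000 cells and from -0.63 to -0.60 at 100 cells. Members called then numbered 102 to 110 and 43 to 111, partners called 32 to 38 and 6 to 48, members called for input 0 to 30 within WT and 49 to 70 within KO, interactions 4 to 52, and genes above and below the median 2 to 4 and 3 to 5. The partner *Rbx1* stood at -0.02 at 100 cells, ranged from -0.18 to 0.17 with each replicate left out, and was called at both ends, without WT replicate 1 and without WT replicate 2 of that input. The cause of these shifts was not tested beyond the smaller number of genes or libraries. With 2 libraries per group, calls rest on variance shared across genes. The least abundant member, *Lonrf1*, was read with 96 to 182 counts per library.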
